A study of Mus musculus with 18 samples.

Results

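Described here is how Cebpg knockout CD8+ T cells responded to halofuginone, over the messenger RNA of 14695 genes. The libraries were chosen by their labels alone: the 3 libraries of Cebpg knockout cells cultured with halofuginone and the 3 cultured without it, 6 of the 18 libraries in the series. The series crossed 3 CRISPR/Cas9 targets (Rosa26, which is the control locus, plus Atf4 and Cebpg) with 24 hours of culture in the presence or absence of the drug. Each of the 6 groups held 3 libraries. The cells were primary mouse CD8+ T cells from spleen and lymph node. Groups are called here by target, and "knockout" is the labels' word. The labels give no editing efficiency and no dose of halofuginone. They also leave unsaid whether cells were cloned, and whether the replicates of a group had mice or cultures of their own. The p-values therefore measure only the spread between these samples, which may be technical.

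Halofuginone inhibits prolyl-tRNA synthetase, and the uncharged tRNA that follows activates the kinase GCN2, which phosphorylates the initiation factor eIF2. General protein synthesis then falls while translation of the transcription factor ATF4 rises, a program called the integrated stress response. CEBPG is a small C/EBP family protein that pairs with ATF4 at composite DNA elements called C/EBP-ATF response elements, which lie near genes for amino acid synthesis, amino acid uptake and tRNA charging. In activated T cells these genes serve growth and division.

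Total counts of the Cebpg knockout libraries were 17.9, 17.5 and 15.1 M (mega) without and 16.7, 14.2 and 14.2 M with halofuginone. Levels are given as CPM, a count divided by the TMM-scaled library total in M. They stand in the order of the replicate numbers, which were not treated as pairs. One treated library, replicate 3, held less of the nuclear RNA Malat1 (1959.7 CPM) than the other treated libraries (3237 and 3580 CPM), and replicate 2 had 7.28% of its counts in the ribosomal RNA gene Rn18s-rs5, against 3.14% to 3.96% in the other 5. The part these shares played in the results was not tested, but the numbers of genes called for the drug effect and for the 2 differences were recounted without each library. List counts were redone without treated replicate 2, without treated replicate 3, and without 3 libraries together. The last, called the 3 low-Malat1 libraries, are the treated library of each target with the least Malat1. Untreated Rosa26 libraries also held little Malat1, at 1023, 858 and 1168 CPM, against 2104, 2364 and 2048 CPM in untreated Cebpg knockout libraries. The part of this in the differences from Rosa26 cells was not tested. The CD8 T cell markers were present, with Cd8a at 1031, 1072 and 1066 CPM without and 986, 947 and 1006 CPM with halofuginone, and the summed level of the 10 markers was 4403 to 4463 CPM without and 3648 to 3944 CPM with the drug. Of the 14 myeloid markers 2 were among the genes measured, at a summed 3.23 to 5.20 CPM without and 7.71 to 10.5 CPM with the drug, and of the 12 B cell markers 6 were, with sums of 410.4 to 421 CPM without and 439 to 493 CPM with the drug, most of it Ighm. Cd4 and several other defining markers of those cells were not among the genes analysed here, and the part of such cells in the results was not tested. Cebpg mRNA itself does not check the genotype, because an edited gene can still be transcribed: it stood at 56.7, 58.5 and 53.9 CPM without and 93.4, 104 and 105 CPM with halofuginone.

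Of the 14695 genes, 3391 (23.1%) rose and 4110 (28.0%) fell at an adjusted p under 0.05 (edgeR quasi-likelihood test, Benjamini-Hochberg over all genes), 51.0% in all. A change of at least 2-fold was seen in 1015 risen genes (6.91%) and 937 fallen genes (6.38%). Fold changes below are log2, and the median over all genes was -0.03. The value after ± is an approximate standard error worked back from the test, the absolute change divided by the square root of its F statistic. Under upper-quartile scaling that median stood at 0.08 and the calls at 4254 higher and 3464 lower. Changes smaller than about 0.1 therefore depend on the scaling. The calls of some larger changes do too, as given below for Atf4, Asns, Iars, Sars1 and Hspa9. Fewer cells of a type and less RNA per cell cannot be told apart in bulk RNA. The plot of called members by list shows where the calls fell: lists of interferon-inducible, naive T cell and cytokine receptor genes leaned up, while those of division, sterol synthesis and mitochondrial function leaned down.

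**Figure D1:**
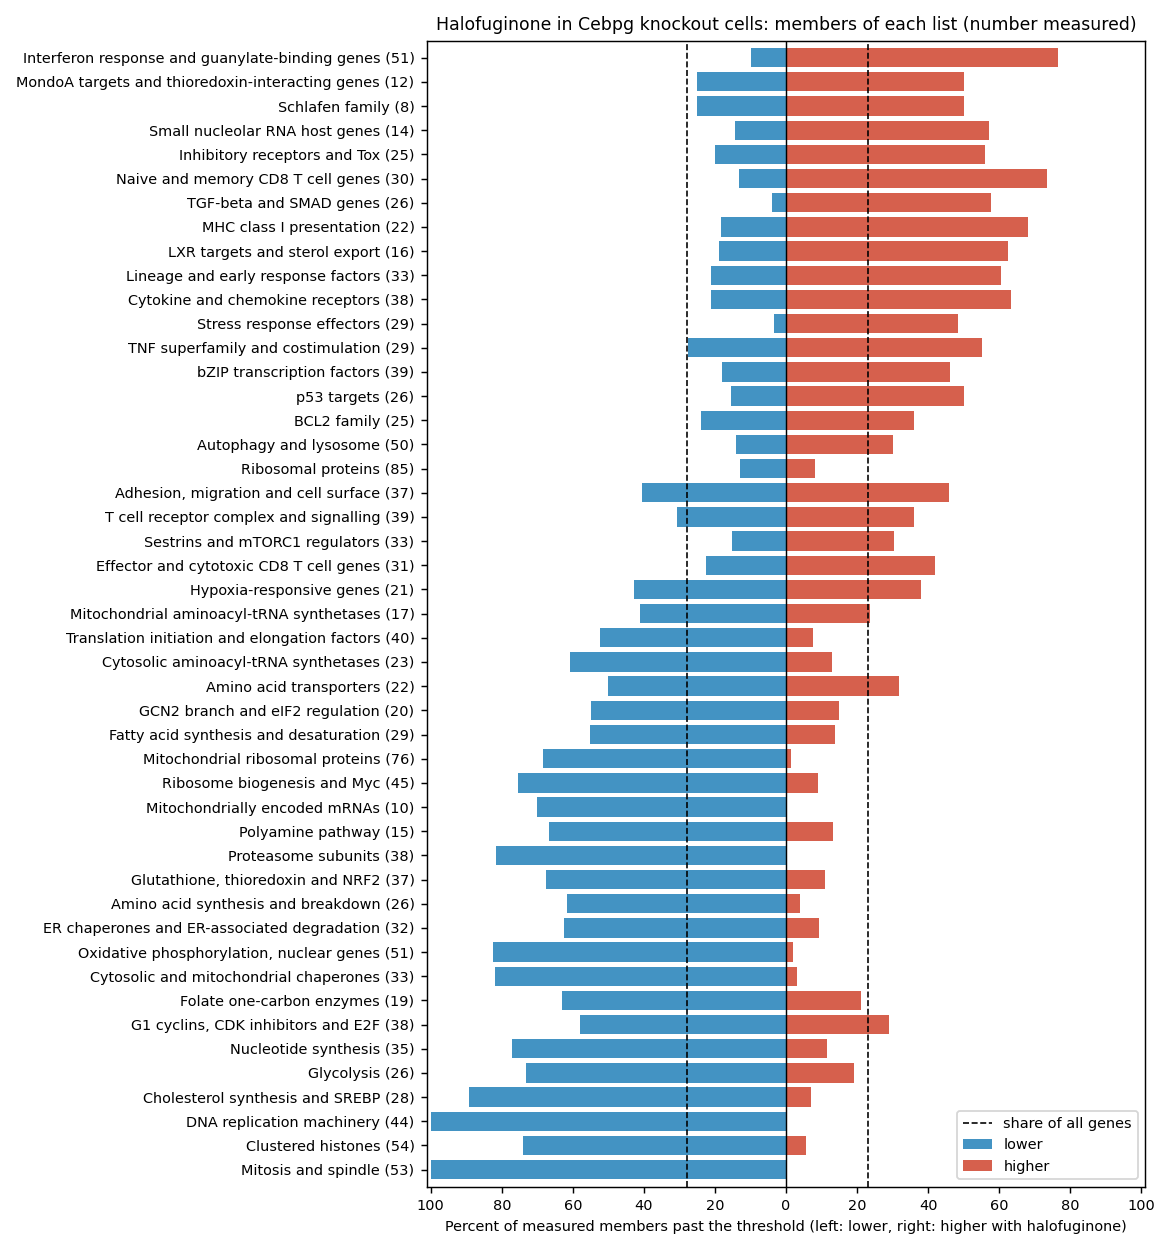
Percent of the measured members of each of 47 gene lists that were higher (right, red) or lower (left, blue) with halofuginone in Cebpg knockout cells, at an adjusted p under 0.05, ordered by the list's median fold change. Dashed lines mark the shares of all genes, 23.1% higher and 28.0% lower; both the DNA replication and the mitosis list reach 100% on the lower side.

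The bZIP transcription factors, the family of ATF4 and CEBPG, rose more often than they fell: 18 of the 39 measured were higher and 7 lower, with a median of 0.31. In Rosa26 cells 28 of them were higher and 5 lower. In the test of the difference from Rosa26 cells, described below, 7 of the 39 were lower and none was higher, against 2.10% of all genes lower. Cebpg rose by 0.84 ± 0.062, with no overlap between treated and untreated libraries, against 1.69 ± 0.062 in Rosa26 cells (difference -0.86 ± 0.087). Atf4, whose control is mainly translational, had 286, 273 and 277 CPM without and 300.4, 299.8 and 346 CPM with halofuginone, a change of 0.18 ± 0.10 that did not pass the threshold (adjusted p = 0.15), though the treated libraries were all higher; it passed in 7 alternatives (adjusted p 0.0024 to 0.0486), among them RLE scaling, upper-quartile scaling, DESeq2 and leaving out treated replicate 2. Ddit3, which encodes the pro-apoptotic factor CHOP, went from 8.95, 7.77 and 5.87 CPM to 31.2, 29.2 and 39.3 CPM. Its treated libraries all lay above its untreated ones, and it rose by 2.13 ± 0.21. Other members of the family that rose were Fosl2 (by 2.33 ± 0.092), an AP-1 subunit, Crem (by 2.01 ± 0.094), a cAMP-responsive factor, Bach2 (by 1.86 ± 0.082), a repressor that restrains effector differentiation, Jun (by 1.10 ± 0.092) and Tef (by 1.03 ± 0.093). Xbp1, the transcription factor of the unfolded protein response, fell by 0.91 ± 0.092.

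Of 29 measured effectors of the stress response, 14 rose, 14 did not pass and 1 fell in Cebpg knockout cells, with a median of 0.35, where 26 rose and 1 fell in Rosa26 cells (23.6% of all genes rose and 24.1% fell there). A test of the difference between the drug effects in the 2 genotypes (Cebpg knockout minus Rosa26, which share no library) passed the threshold for 363 of the 14695 genes (2.47%), of which 308 (2.10%) were lower and 55 (0.374%) higher in Cebpg knockout cells. Of the 29 effectors 10 were lower in this test and none was higher. The split of the 363 depends on scaling: it was 224 lower and 154 higher with RLE size factors, 303 and 150 with upper-quartile scaling, and 353 and 295 with DESeq2. It also depends on single libraries: the total fell to 210 and 220 without untreated Cebpg knockout replicates 2 and 3 and to 219 and 216 without untreated Rosa26 replicates 1 and 3. Leaving out treated Cebpg knockout replicate 2 gave 150 lower and 94 higher, leaving out treated Rosa26 replicate 2, a library with little Malat1, gave 229 and 205, and leaving out the low-Malat1 library of each treated group gave 794 and 259. The genes named as different below kept the call under every one of these settings unless the text says otherwise.

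Atf5, a stress-induced relative of ATF4, had 9.97, 11.1 and 12.7 CPM without and 24.5, 23.6 and 26.4 CPM with halofuginone. The treated libraries were all higher, yet the rise of 1.14 ± 0.15 compared with 3.28 ± 0.15 in Rosa26 cells, a difference of -2.13 ± 0.21 (adjusted p = 5.8e-06, edgeR quasi-likelihood test). Trib3, a pseudokinase that feeds back on ATF4, had 52.8, 47.1 and 54.4 CPM without and 71.6, 74.0 and 87.9 CPM with halofuginone. It rose by 0.60 ± 0.11 against 2.64 ± 0.11 in Rosa26 cells, a difference of -2.04 ± 0.16. Its treated Cebpg knockout libraries stood above the untreated ones but far below the 319 ± 32.3 CPM (mean ± SD, n = 3) of treated Rosa26 cells. Niban1, a stress-inducible regulator of translation, had 29.2, 30.5 and 31.1 CPM without and 48.5, 54.5 and 56.4 CPM with halofuginone. The groups did not overlap, and the rise of 0.81 ± 0.084 was smaller than the 2.38 ± 0.083 of Rosa26 cells, a difference of -1.57 ± 0.12.

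Some effectors that rose in Rosa26 cells were at the untreated level in Cebpg knockout cells. Cyb5r1, a cytochrome b5 reductase, had 26.6, 27.5 and 26.9 CPM without and 25.2, 24.2 and 29.4 CPM with halofuginone, so that treated and untreated libraries overlapped; the change was -0.037 ± 0.084 (adjusted p = 0.749), against 1.45 ± 0.08 in Rosa26 cells (difference -1.49 ± 0.12). Eif4ebp1, a repressor of cap-dependent translation, was at 32.0, 28.7 and 27.9 CPM without and 29.0, 29.7 and 30.1 CPM with halofuginone, and Sesn2, a leucine sensor that inhibits mTORC1, at 32.9, 36.8 and 34.6 CPM without and 29.5, 31.4 and 33.3 CPM with halofuginone. In Rosa26 cells these genes rose by 0.66 ± 0.092 and 0.52 ± 0.089, and the differences of -0.66 ± 0.13 and -0.67 ± 0.13 passed the threshold. Sesn3, another sestrin, rose by 1.31 ± 0.058 in Cebpg knockout cells and by 0.92 ± 0.058 in Rosa26 cells, a difference of 0.39 ± 0.081. Some effectors had no called difference in the fit of all 18 libraries. The differences of Ddit3 (-0.63 ± 0.31, adjusted p = 0.389), of Bbc3, which encodes the BH3-only protein PUMA (-0.63 ± 0.19, adjusted p = 0.0915), and of Cdkn1a, which encodes p21 (-0.46 ± 0.12, adjusted p = 0.0507), did not pass, and for Atg12, a conjugation protein of autophagy, the difference was 0.38 ± 0.12 (adjusted p = 0.135). These calls depended on the setting for all but Ddit3. The difference of Bbc3 passed in 4 alternatives (adjusted p 0.00041 to 0.0388), that of Cdkn1a in 6 alternatives (adjusted p 0.0029 to 0.0242) and that of Atg12 in 8 alternatives (adjusted p 0.013 to 0.0493). DESeq2, upper-quartile scaling and leaving out the 3 low-Malat1 libraries were among them for all 3 genes. Single libraries whose omission gave the call were treated Cebpg knockout replicate 3 for Bbc3 and Cdkn1a, treated Rosa26 replicate 3 for Cdkn1a, and treated replicate 2 of either genotype for Atg12.

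**Figure D2:**
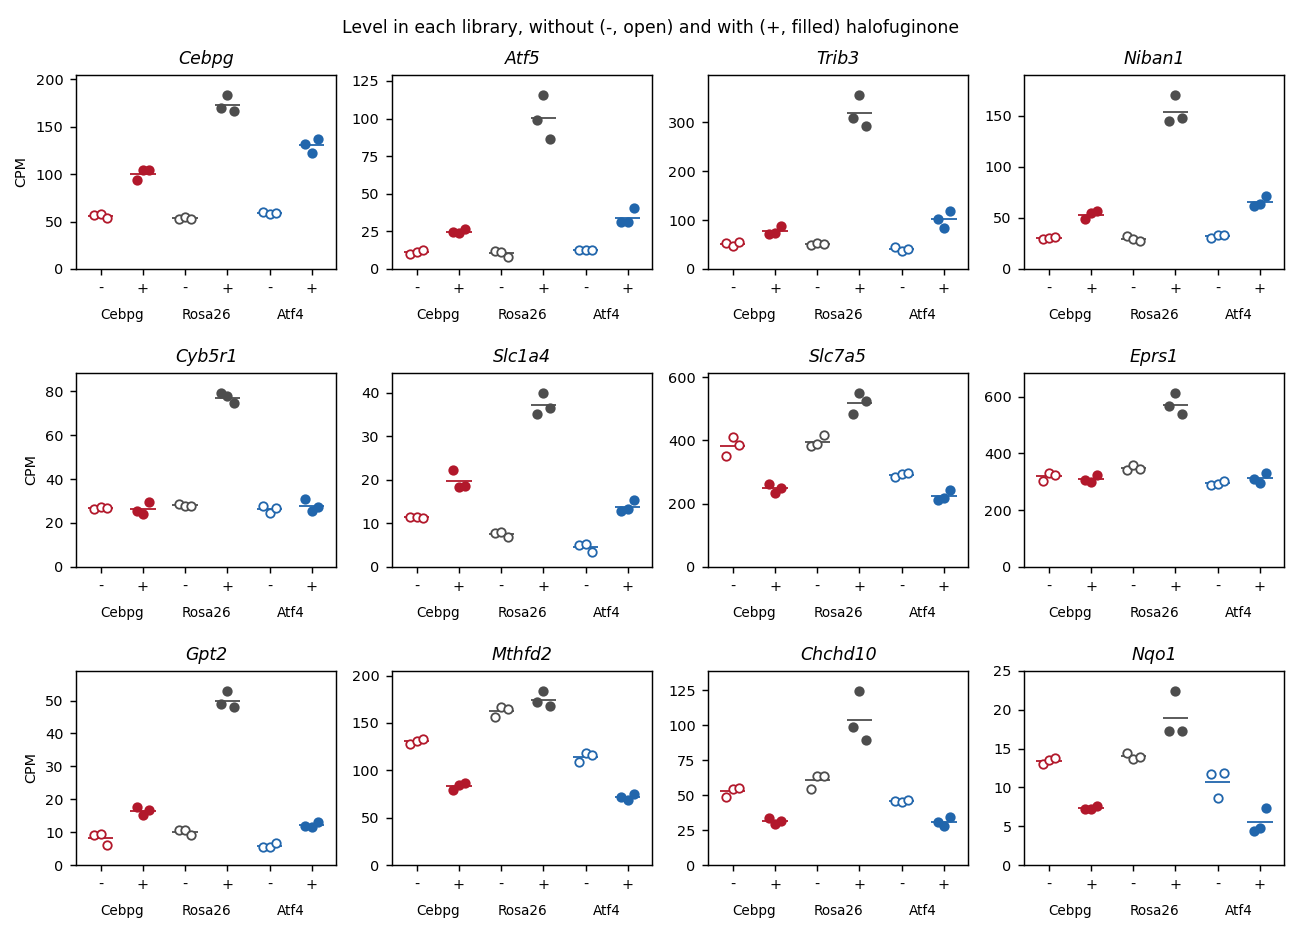
Level (CPM, linear axis from 0) of 12 genes in each of the 18 libraries; each point is 1 library, each horizontal line the mean of 3, open points without and filled points with halofuginone, red for Cebpg knockout, grey for Rosa26 and blue for Atf4 knockout cells. Treated Rosa26 libraries stand above the treated libraries of both knockouts in all 12 genes; in Cebpg knockout cells the treated libraries of Cyb5r1 and Eprs1 overlap the untreated ones, and those of Slc7a5, Mthfd2, Chchd10 and Nqo1 lie below them.

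Aminoacyl-tRNA synthetases load amino acids onto tRNA, and the cytosolic ones are textbook targets of the ATF4 program. Of 23 measured cytosolic synthetases and their scaffold proteins, 3 rose and 14 fell in Cebpg knockout cells (median -0.25), while 9 rose and 8 fell in Rosa26 cells, and 10 of the 23 were lower in the test of the difference. Eprs1, which carries the prolyl-tRNA synthetase that halofuginone binds, was at 302, 332 and 324 CPM without and 306, 299.8 and 325 CPM with halofuginone. These libraries overlapped, with a change of -0.041 ± 0.061 (adjusted p = 0.61), whereas it rose by 0.71 ± 0.061 in Rosa26 cells, a difference of -0.75 ± 0.086 (adjusted p = 3.1e-05). Sars1, the seryl enzyme, and Iars, the isoleucyl enzyme, had changes of 0.12 ± 0.083 and 0.12 ± 0.059 that did not pass (adjusted p = 0.25 and 0.0898), against rises of 0.81 ± 0.083 and 0.78 ± 0.059 in Rosa26 cells (differences -0.70 ± 0.12 and -0.66 ± 0.084). The change of Sars1 passed in 5 alternatives (adjusted p 0.0025 to 0.0489) and that of Iars in 7 alternatives (adjusted p 0.0025 to 0.0388), among them RLE and upper-quartile scaling for both and, for Iars, leaving out untreated replicate 3. Mars1, the methionyl enzyme, fell by 0.49 ± 0.067, where its change in Rosa26 cells was 0.077 ± 0.066 (adjusted p = 0.364; difference -0.56 ± 0.094). The synthetases that rose included Aars1, the alanyl enzyme (by 0.55 ± 0.063, against 1.22 ± 0.064 in Rosa26 cells, a difference of -0.67 ± 0.089), and Wars1, the tryptophanyl enzyme (by 0.57 ± 0.079), whose difference of -0.34 ± 0.11 did not pass (adjusted p = 0.135, 0.0273 without treated replicate 3 and 0.0061 without the 3 low-Malat1 libraries). None of the 17 mitochondrial synthetases passed the test of the difference by edgeR, a test that 2.47% of all genes passed. With that share, none of 17 does not set them apart from other genes. None passed in the other settings run for lists either. Those settings were RLE and upper-quartile scaling, without treated replicate 2 or 3, and without the 3 low-Malat1 libraries. Of the 17, 4 rose and 7 fell in Cebpg knockout cells. Under RLE or upper-quartile scaling 6 cytosolic synthetases rose rather than 3, and without treated replicate 3 the mitochondrial ones that rose were 2.

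Amino acid transporters moved both ways. Of 22 measured, 7 rose and 11 fell with halofuginone in Cebpg knockout cells, against 10 and 5 in Rosa26 cells, and 7 were lower in the test of the difference. Slc7a5, the light chain of the large neutral amino acid transporter LAT1, had 349, 410.0 and 385 CPM without and 264, 233 and 248 CPM with halofuginone. Every treated library lay below every untreated one, a fall of 0.62 ± 0.072, while in Rosa26 cells the gene rose by 0.39 ± 0.071; the difference was -1.01 ± 0.10 (adjusted p = 6.1e-06). Slc3a2, the heavy chain that Slc7a5 pairs with, was at 168, 169 and 166 CPM without and 142, 145 and 155 CPM with halofuginone, lower in every treated library, but the change of -0.19 ± 0.10 did not pass (adjusted p = 0.133; 0.0391 when only the groups compared were fitted and 0.0011 without the 3 low-Malat1 libraries), against a rise of 0.56 ± 0.10 in Rosa26 cells (difference -0.75 ± 0.14). Slc1a4, a transporter of alanine, serine and cysteine, and Slc6a9, a glycine transporter, did rise, by 0.80 ± 0.12 and 1.76 ± 0.18, but by less than the 2.29 ± 0.12 and 3.63 ± 0.17 of Rosa26 cells (differences -1.49 ± 0.17 and -1.87 ± 0.25). Slc38a9, the lysosomal arginine sensor of mTORC1, rose by 1.27 ± 0.12, and its difference from Rosa26 cells did not pass (-0.12 ± 0.18, adjusted p = 0.862).

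Most enzymes of amino acid metabolism fell. Of 26 measured, Gpt2 alone rose (3 rose with upper-quartile scaling) and 16 fell (median -0.56). In Rosa26 cells 4 rose and 15 fell, and 6 of the 26 were lower in the test of the difference. Gpt2, the mitochondrial alanine aminotransferase, had 9.23, 9.56 and 6.14 CPM without and 17.5, 15.2 and 16.9 CPM with halofuginone. It rose by 0.99 ± 0.13 against 2.29 ± 0.12 in Rosa26 cells (difference -1.31 ± 0.18). Its groups did not overlap. Asns, the asparagine synthetase, was at 26.0, 25.0 and 26.5 CPM without and 31.1, 27.1 and 31.3 CPM with halofuginone: its untreated and treated libraries were also apart, but the change of 0.21 ± 0.088 did not pass (adjusted p = 0.0527). It passed in 7 alternatives (adjusted p 0.0012 to 0.0289), among them RLE and upper-quartile scaling, DESeq2 and leaving out treated replicate 2. It differed by -0.80 ± 0.12 from Rosa26 cells. Aldh18a1, which starts proline synthesis, had a change of -0.02 ± 0.068 (adjusted p = 0.836), where it rose by 0.49 ± 0.068 in Rosa26 cells (difference -0.51 ± 0.10). Got1, the cytosolic aspartate aminotransferase, fell by 0.84 ± 0.071 against 0.35 ± 0.068 in Rosa26 cells (difference -0.49 ± 0.10). Ass1, the argininosuccinate synthase, showed the deepest fall of those named here, by 1.77 ± 0.10, and its difference of -0.45 ± 0.14 did not pass (adjusted p = 0.0957). It passed in 3 alternatives (adjusted p 0.0124 to 0.0491), DESeq2, upper-quartile scaling and leaving out the 3 low-Malat1 libraries.

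Serine-driven one-carbon metabolism fell too: 12 of the 19 measured folate enzymes and carriers were lower and 4 higher (median -0.60), against 7 lower and 4 higher in Rosa26 cells, and 6 were lower in the test of the difference. Mthfd2, the mitochondrial methylenetetrahydrofolate dehydrogenase, had 127, 131 and 133 CPM without and 79.6, 84.8 and 86.3 CPM with halofuginone. It fell by 0.64 ± 0.057 with groups that did not overlap; in Rosa26 cells its change of 0.10 ± 0.055 did not pass (adjusted p = 0.158). Mthfd1l, the next enzyme of the mitochondrial arm, fell by 0.60 ± 0.061, and Gcsh, the hydrogen carrier protein of the glycine cleavage system, by 0.85 ± 0.10. The differences from Rosa26 cells were -0.74 ± 0.079, -0.58 ± 0.086 and -0.75 ± 0.13 in that order. Psat1, the aminotransferase of serine synthesis, had 258, 261 and 258 CPM without and 113, 117 and 131 CPM with halofuginone. It fell by 1.11 ± 0.067, with a difference of -0.81 ± 0.094 from Rosa26 cells. Shmt1, the cytosolic serine hydroxymethyltransferase, fell by 1.10 ± 0.089, and its difference from Rosa26 cells did not pass (-0.23 ± 0.12, adjusted p = 0.446).

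The 308 genes lower in the test of the difference held 113 that rose in Rosa26 cells. In Cebpg knockout cells 41 of these also rose, 51 did not pass the threshold and 21 fell. The promoters of the 113 were read for the core of a C/EBP-ATF response element, TGATGNAA on either strand, in the 250 bases before and 50 bases after the annotated start (RefSeq, GRCm38.p6, matched by symbol). A promoter was found for 83 of the 113, and 9 of these (10.8%) held the core, against 259 of the 9635 measured genes with a promoter (2.69%), 58 of the 1939 that rose in both genotypes with no called difference (2.99%), 4 of the 158 other genes lower in the test (2.53%), and 4.51% of all 27025 genes in the promoter table. With the stricter TTGCATCA, the counts were 4 of 83 (4.82%) and 69 of 9635 (0.716%). These are matches of letters, not measured binding.

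The 9 genes were Asns, Slc1a4, Trib3, Iars, Chchd10, Pck2, Fgl2, Arl14ep and Snx10, of which the last 4 fall outside the rule for named genes and were chosen after their matches were seen. Stretches of 30 bases around the core are shown for 6 of them, on the strand of the gene, with the core in capitals, so that the shared letters can be compared:
Asns, chr6:7693214-7693243, minus strand: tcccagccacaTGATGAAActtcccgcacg
Slc1a4, chr11:20332699-20332728, minus strand: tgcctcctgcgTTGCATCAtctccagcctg
Trib3, chr2:152344028-152344057, minus strand: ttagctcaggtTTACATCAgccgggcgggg
Iars, chr13:49682126-49682155, plus strand: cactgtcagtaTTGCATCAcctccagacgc
Chchd10, chr10:75933041-75933070, plus strand: acgcTGATGCAAatggcTGATGCAAatgcg
Pck2, chr14:55540152-55540181, plus strand: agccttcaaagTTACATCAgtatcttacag
The Chchd10 stretch holds 2 copies of the core in the same orientation. Counting from the start, the first base of the core lies at -23 in Asns, -4 in Slc1a4, -85 in Chchd10 and -103 in Pck2, and at 15 and 8, inside the annotated transcript, in Trib3 and Iars. Pck2, a mitochondrial phosphoenolpyruvate carboxykinase, changed by -0.52 ± 0.11 in Cebpg knockout cells and rose by 0.77 ± 0.093 in Rosa26 cells, a difference of -1.30 ± 0.14.

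Chchd10, a protein of the mitochondrial cristae, rose in Rosa26 cells and fell in Cebpg knockout cells. Its libraries held 48.9, 54.4 and 55.4 CPM without and 33.7, 29.4 and 31.5 CPM with halofuginone, all treated ones below all untreated ones, a fall of 0.74 ± 0.11 against a rise of 0.78 ± 0.10 in Rosa26 cells (difference -1.52 ± 0.15, adjusted p = 5.8e-06). Lonp1, the main protease of the mitochondrial matrix, did the same, with a fall of 0.45 ± 0.056 against a rise of 0.37 ± 0.056 (difference -0.81 ± 0.079). For Hspa9, the mitochondrial HSP70, the rise of 0.63 ± 0.07 in Rosa26 cells stood against a fall of 0.18 ± 0.07 in Cebpg knockout cells. That fall (adjusted p = 0.0425) did not pass in 11 alternatives, among them RLE scaling (adjusted p = 0.088) and leaving out treated replicate 1 (0.149) or 2 (0.123) or any untreated replicate (0.053 to 0.119), while the difference of -0.81 ± 0.10 kept its call. Nqo1, the quinone oxidoreductase of the NRF2 program, had 13.0, 13.5 and 13.8 CPM without and 7.21, 7.21 and 7.57 CPM with halofuginone, again without overlap, a fall of 0.87 ± 0.16 against a rise of 0.44 ± 0.15 (difference -1.31 ± 0.22).

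In the list of glutathione, thioredoxin and NRF2 genes, 25 of 37 fell and 4 rose in Cebpg knockout cells, against 18 and 11 in Rosa26 cells, and 8 were lower in the test of the difference (5 without treated replicate 2, 13 without the 3 low-Malat1 libraries). Txnrd1, thioredoxin reductase, fell by 0.91 ± 0.055, and Gclc, the catalytic subunit that limits glutathione synthesis, by 0.36 ± 0.058, with differences of -0.52 ± 0.077 and -0.59 ± 0.082. Tkt, transketolase of the pentose phosphate pathway, fell by 1.10 ± 0.11, and Gstp1, a glutathione transferase, by 1.22 ± 0.091; their differences of -0.24 ± 0.15 and -0.40 ± 0.13 did not pass (adjusted p = 0.569 and 0.109; Gstp1 0.0309 without treated replicate 3 and 0.0045 without the 3 low-Malat1 libraries). Mgst2, a microsomal glutathione transferase, was among the 4 that rose, by 0.77 ± 0.072.

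Genes with other roles were also lower in the test. Zbtb7b, which encodes ThPOK, a factor of the CD4 lineage and a CD4 marker here, had 3.91, 3.91 and 3.78 CPM without and 8.42, 7.55 and 8.27 CPM with halofuginone. It rose by 1.06 ± 0.13 against 2.77 ± 0.13 in Rosa26 cells. Of the 4 measured CD4 markers 2 rose and 1 fell, and their sum was 716 to 789.6 CPM without and 659 to 708 CPM with the drug, most of it Il2ra. Gab2, a signalling adaptor, rose by 0.94 ± 0.19 against 2.59 ± 0.19, Angptl6, a secreted angiopoietin-like protein, by 1.19 ± 0.14 against 3.28 ± 0.14, and Vegfa, the vascular growth factor, by 0.49 ± 0.10 against 1.54 ± 0.093. Nfil3, a bZIP repressor, fell by 0.36 ± 0.11 where it rose by 0.43 ± 0.10, and Nfe2l1, the bZIP factor of proteasome genes, rose by 0.35 ± 0.072 against 1.11 ± 0.072. Tnf, the inflammatory cytokine, had 57.7, 57.3 and 59.9 CPM without and 37.2, 37.3 and 37.6 CPM with halofuginone. It fell by 0.64 ± 0.086 in Cebpg knockout cells; in Rosa26 cells its change was 0.018 ± 0.085 (adjusted p = 0.882), and the difference was -0.66 ± 0.12 (adjusted p = 0.0044). Gbp11 had a difference of -1.68 ± 0.26, but guanylate-binding genes have near-identical copies and its counts are uncertain. The differences of the others were -1.71 ± 0.19, -1.65 ± 0.27, -2.08 ± 0.20, -1.05 ± 0.13, -0.80 ± 0.15 and -0.76 ± 0.10 in the order named.

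**Figure D3:**
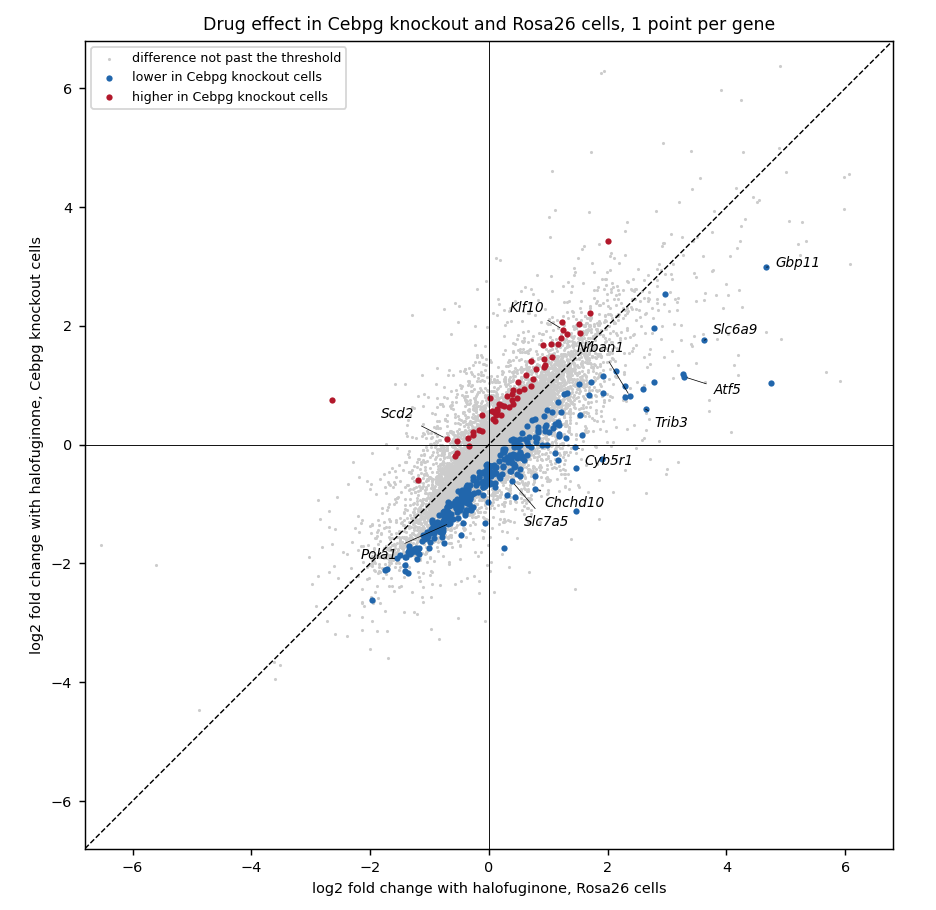
Log2 fold change with halofuginone in Rosa26 cells (x axis) and in Cebpg knockout cells (y axis), 1 point per gene, with the diagonal dashed; 4 genes lie outside the axes. Blue points (308) and red points (55) passed the test of the difference. Trib3 and Atf5 lie right of the diagonal because they rose less in Cebpg knockout cells. Cyb5r1 lies right of it because it rose in Rosa26 cells with no called change in Cebpg knockout cells, and Scd2 lies left of it.

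Genes of DNA replication fell together. All 44 measured genes of the DNA replication machinery fell in Cebpg knockout cells (median -1.09), as did 43 of them in Rosa26 cells. In Atf4 knockout cells all 44 fell as well (median -1.02). None of the 44 differed between the 2 knockouts in the fit of all 18 libraries, where 2 of the 14695 genes (0.0136%) did. With so few calls over all genes, this does not show that the 2 knockouts respond alike. Mcm10, which helps to activate the replicative helicase, had 121, 126 and 118 CPM without and 44.9, 39.4 and 40.8 CPM with halofuginone; Uhrf1, which brings maintenance methylation to replicated DNA, had 506, 519 and 506 CPM without and 154, 143 and 156 CPM with halofuginone; and Pola1, the catalytic subunit of primase-polymerase alpha, had 132, 135 and 137 CPM without and 53.8, 51.9 and 56.1 CPM with halofuginone. In each of these genes the treated libraries lay far below the untreated ones, with falls of 1.55 ± 0.059, 1.76 ± 0.069 and 1.32 ± 0.059. Cdc6, a licensing factor, fell by 1.58 ± 0.07 and Dnmt1, the maintenance DNA methyltransferase, by 1.18 ± 0.054. The fall was deeper than in Rosa26 cells past the threshold for 23 of the 44, including these 5, with differences of -0.52 ± 0.081, -0.50 ± 0.094, -0.67 ± 0.082, -0.65 ± 0.10 and -0.44 ± 0.075 in the order named. That count fell to 11 without treated Cebpg knockout replicate 2, the library with the high Rn18s-rs5 share, was 17 with RLE scaling, and rose to 32 without the 3 low-Malat1 libraries.

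Genes of mitosis fell as well. All 53 measured genes of mitosis and the spindle fell (median -1.76), and 4 of them were lower in the test of the difference, 1 without treated replicate 2 or with RLE scaling, and 13 without the 3 low-Malat1 libraries. Mki67, the proliferation marker, had 1122, 1254 and 1259 CPM without and 386, 342 and 335 CPM with halofuginone. It fell by 1.77 ± 0.072. Plk1, the polo-like mitotic kinase, fell by 1.86 ± 0.06, Bub1b, of the spindle checkpoint, by 2.00 ± 0.062, and Cenpf, a kinetochore protein, by 2.01 ± 0.064; for none of these 3 did the difference from Rosa26 cells pass (-0.19 ± 0.082, -0.26 ± 0.085 and -0.16 ± 0.087, with adjusted p = 0.296, 0.129 and 0.436). Ncaph, a condensin subunit, was 1 of the 4, with a fall of 1.89 ± 0.073 and a difference of -0.50 ± 0.10.

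The regulators of G1 moved both ways, with 22 of 38 lower and 11 higher. Ccne1, cyclin E1, fell by 1.49 ± 0.062, E2f8, an atypical E2F repressor, by 2.02 ± 0.083, and Mybl2, which drives the mitotic gene program, by 1.78 ± 0.066, and each fell more than in Rosa26 cells (-0.57 ± 0.086, -0.61 ± 0.11 and -0.53 ± 0.091). Of this list 10 genes were lower in the test, a count that dropped to 5 without treated replicate 2. Btg1, an anti-proliferative factor, had 85.9, 93.0 and 91.3 CPM without and 354, 344 and 386 CPM with halofuginone and rose by 2.00 ± 0.081. In nucleotide synthesis 27 of 35 genes fell and 4 rose (median -0.75), among them Rrm1, the large subunit of ribonucleotide reductase (by 1.80 ± 0.078), and Tk1, thymidine kinase (by 1.75 ± 0.083), both lower than in Rosa26 cells (-0.51 ± 0.11 and -0.57 ± 0.11). Of 54 clustered histone genes 40 fell and 3 rose (median -1.71). None had a called difference by edgeR in the settings run for lists, against 2.47% of all genes in the fit of all 18 libraries. The library preparation captured polyadenylated RNA, which most clustered histone transcripts lack, and near-identical copies make their counts uncertain.

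**Figure D4:**
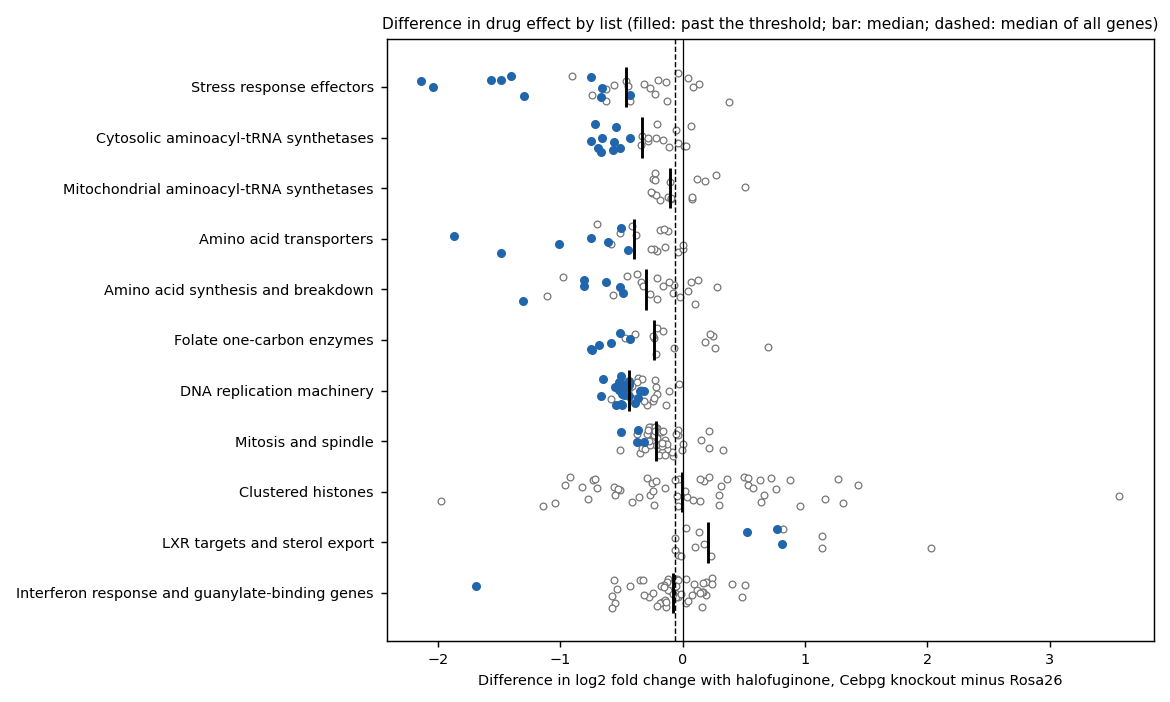
Difference in log2 fold change with halofuginone, Cebpg knockout minus Rosa26, for each measured member of 11 lists; filled points passed the threshold, bars are list medians and the dashed line is the median of all genes (-0.06). DNA replication genes cluster on the negative side (median -0.44), mitochondrial synthetases and histones lie around 0, and the 3 filled points of the LXR list are positive.

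Most genes of ribosome biogenesis fell. Of 45 genes of ribosome biogenesis and the Myc network 34 fell and 4 rose (median -0.50). Myc itself was at 256, 279 and 279 CPM without and 269, 255 and 301 CPM with halofuginone, groups that overlapped (change 0.02 ± 0.068, adjusted p = 0.839, and 0.0488 with upper-quartile scaling), while Mxd1, an antagonist of MYC, rose from 14.7, 16.3 and 14.7 CPM to 97.2, 84.9 and 100.1 CPM, by 2.62 ± 0.10. Nolc1, a nucleolar assembly factor, fell by 0.91 ± 0.073 and Polr1b, a subunit of RNA polymerase I, by 0.91 ± 0.06. Of 40 translation factors 21 fell and 3 rose (8 with upper-quartile scaling), with Eif4g1, the cap-binding scaffold, lower by 0.64 ± 0.059 and Eif3b by 0.87 ± 0.071, and Eef2 at 3900.3, 3904 and 3999.6 CPM without and 3762, 3847 and 4479.8 CPM with halofuginone. Of the 40, Eif3c had a called difference of -0.56 ± 0.11: its change of -0.16 ± 0.078 in Cebpg knockout cells did not pass (adjusted p = 0.0976, 0.0427 without treated replicate 3 and 0.0016 without the 3 low-Malat1 libraries), against a rise of 0.41 ± 0.078 in Rosa26 cells.

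Most proteasome genes fell, 31 of 38 with none higher (median -0.51), such as Psmd1 of the regulatory particle (by 0.94 ± 0.064) and Psmc1 of its ATPase ring (by 0.92 ± 0.079). Of 33 chaperone genes 27 fell and 1 rose, with Hspd1, mitochondrial HSP60, lower by 1.08 ± 0.076. Of 32 ER chaperones and degradation factors 20 fell and 3 rose, with Canx, calnexin, lower by 0.80 ± 0.058 and Hyou1, an ER chaperone, by 0.91 ± 0.071. Of 51 nuclear genes of oxidative phosphorylation 42 fell and 1 rose (median -0.57), and of 76 mitochondrial ribosomal proteins 52 fell and 1 rose (median -0.44); Cox5a of complex IV fell by 0.89 ± 0.11 and Mrpl18 by 1.04 ± 0.12. Of 10 measured mRNAs of the mitochondrial genome 7 fell and none rose, mt-Nd1 of complex I by 1.20 ± 0.15 and mt-Cytb of complex III by 0.93 ± 0.15.

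Cytosolic ribosomal proteins gave no stable picture. Of 85 measured, 7 rose and 11 fell, and 67 did not pass (median 0.07). The counts were 15 and 10 with RLE scaling, 21 and 9 with upper-quartile scaling, 1 and 13 without treated replicate 3, and 16 and 21 without the 3 low-Malat1 libraries. The small nucleolar RNA host genes included 8 of 14 that rose and 2 that fell (median 0.68). Gas5, a growth-arrest transcript, had 318, 263 and 253 CPM without and 702, 867 and 878 CPM with halofuginone. It rose by 1.55 ± 0.25. Snhg12 had 38.5, 28.9 and 32.7 CPM without and 186, 186 and 209.8 CPM with halofuginone. It rose by 2.54 ± 0.14; the groups did not overlap in either gene.

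Sterol and fatty acid metabolism fell on the synthesis side. Of 28 measured genes of cholesterol synthesis and its SREBP control 25 fell and 2 rose (median -1.06). Idi1, the isopentenyl isomerase, had 50.9, 55.3 and 55.9 CPM without and 10, 11.7 and 14.4 CPM with halofuginone. It fell by 2.18 ± 0.11. All its treated libraries lay below all untreated ones. Fasn, fatty acid synthase, fell by 1.21 ± 0.062 and Fads2, a desaturase, by 3.18 ± 0.14, while 4 of the 29 genes of that list rose and 16 fell.

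LXR targets and genes of sterol export rose more often than they fell. Of 16 measured, 10 rose and 3 fell (median 0.41). Those that fell were Scd1, Srebf1 and Lpcat3, with changes of -1.89, -0.69 and -0.42. In the test of the difference 3 were higher than in Rosa26 cells: Scd2, Mylip, which encodes a ubiquitin ligase (0.78 ± 0.18), and Abcg1 (0.53 ± 0.13). The difference of Mylip did not pass when untreated Cebpg knockout replicate 1 or 2, untreated Rosa26 replicate 1, treated Cebpg knockout replicate 1 or treated Rosa26 replicate 1 or 3 was left out (adjusted p 0.0506 to 0.0805), and that of Abcg1 did not pass with the replicate block or without any untreated Cebpg knockout replicate, untreated Rosa26 replicate 2 or 3, treated Cebpg knockout replicate 1 or 3 or treated Rosa26 replicate 3 (0.0591 to 0.0884). Abca1, a cholesterol exporter, had 1.30, 1.15 and 0.608 CPM without and 9.56, 8.85 and 9.79 CPM with halofuginone. It rose by 3.17 ± 0.29. Abcg1, another sterol exporter, had 26.0, 28.0 and 28.1 CPM without and 91.7, 80.2 and 94.3 CPM with halofuginone. It rose by 1.70 ± 0.089. Scd2, a stearoyl-CoA desaturase, had 283, 321 and 321 CPM without and 324, 319.8 and 347 CPM with halofuginone in Cebpg knockout cells, groups that overlapped (change 0.10 ± 0.071, adjusted p = 0.265). That change passed in 4 alternatives (adjusted p 0.003 to 0.0466), RLE and upper-quartile scaling, DESeq2 and a minimum count of 50. It fell by 0.71 ± 0.071 in Rosa26 cells and rose by 0.75 ± 0.071 in Atf4 knockout cells. It differed from both, by 0.81 ± 0.10 (adjusted p = 7e-05) and -0.65 ± 0.10 (adjusted p = 0.0211). The difference from Atf4 knockout cells did not pass when untreated Atf4 knockout replicate 1, 2 or 3, untreated Cebpg knockout replicate 2 or 3, or treated Cebpg knockout replicate 1 was left out (adjusted p 0.0957 to 0.141). Tsc22d3, a glucocorticoid-inducible leucine zipper gene placed on the same list, had 8.95, 6.68 and 7.49 CPM without and 57.4, 64.2 and 69.9 CPM with halofuginone. It rose by 3.04 ± 0.17.

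Glycolytic genes fell. On a list of 12 genes built around MondoA, a sensor of sugar phosphates, 6 rose and 3 fell (Arrdc1, Arrdc3 and Tkfc). That list is not of targets alone: it holds Mlxip, which encodes MondoA, and Mlx, neither of which passed. Of 26 glycolytic genes 19 fell and 5 rose (median -0.93). Slc16a3, the lactate exporter MCT4, had 45.9, 46.2 and 45.1 CPM without and 8.25, 8.44 and 9.72 CPM with halofuginone, groups far apart and a fall of 2.38 ± 0.12; Tpi1, triose phosphate isomerase, fell by 1.71 ± 0.11 and Hk2, hexokinase 2, by 0.95 ± 0.066. Txnip, which restrains glucose uptake, had 214, 222 and 225 CPM without and 1259, 1329.7 and 1440.3 CPM with halofuginone. It rose by 2.61 ± 0.09. Its relative Arrdc4 had 1.59, 2.94 and 2.50 CPM without and 24.2, 26.4 and 28.4 CPM with halofuginone. It rose by 3.49 ± 0.17. Klf10, a TGF-beta-inducible factor placed on the MondoA list, rose by 1.94 ± 0.10, more than the 1.25 ± 0.10 of Rosa26 cells (difference 0.69 ± 0.14, adjusted p = 0.0084). Hif1a, the hypoxia factor, rose by 0.93 ± 0.059, and its list of 21 responsive genes split into 8 higher and 9 lower.

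Genes of naive and memory T cells rose. Of 30 measured naive and memory genes 22 rose and 4 fell (median 0.61), where 19 rose in Rosa26 cells. S1pr1, the receptor that lets T cells leave lymph nodes, had 45.8, 44.3 and 43.9 CPM without and 247, 247 and 277 CPM with halofuginone. It rose by 2.52 ± 0.12. Klf2, the factor that maintains it, had 62.5, 57.3 and 67.0 CPM without and 192, 198 and 238 CPM with halofuginone. It rose by 1.75 ± 0.12. The treated libraries of both genes lay far above the untreated ones. Lef1, a factor of naive and memory T cells, rose by 1.11 ± 0.061 and Bcl2, a survival factor, by 0.73 ± 0.058. Tcf7, a relative of Lef1, had 342, 359 and 354 CPM without and 506, 482 and 549 CPM with halofuginone. It rose by 0.54 ± 0.083; in Rosa26 cells its change was 0.078 ± 0.082 (adjusted p = 0.472), and the difference of 0.47 ± 0.12 (adjusted p = 0.0378) did not pass with the replicate block or when any 1 of 10 of the 12 libraries compared was left out, all but treated replicate 2 of either genotype (adjusted p 0.0618 to 0.101). Eomes, a T-box factor of memory and effector cells, was 1 of the 4 that fell, by 1.63 ± 0.10.

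Effector genes had no common direction, with 13 of 31 higher and 7 lower. Gzmb, granzyme B, had 1118, 1119 and 1134 CPM without and 838, 799.7 and 906 CPM with halofuginone. It fell by 0.41 ± 0.08. Zfp683, which encodes the tissue-residency factor HOBIT, had 21.6, 22.2 and 23.7 CPM without and 5.41, 4.53 and 3.54 CPM with halofuginone. It fell by 2.31 ± 0.14. Klrd1, which encodes a killer lectin receptor, had 32.8, 25.7 and 31.7 CPM without and 113, 112 and 129 CPM with halofuginone and Klrk1, which encodes another, had 20.4, 19.4 and 20.8 CPM without and 61.5, 62.1 and 57.9 CPM with halofuginone, rises of 1.97 ± 0.14 and 1.58 ± 0.10. Fasl, the death ligand, had 4.36, 4.09 and 3.65 CPM without and 15.9, 16.3 and 16.5 CPM with halofuginone and rose by 2.01 ± 0.18, and its receptor Fas rose by 1.43 ± 0.11. Ifng, the gene of interferon gamma, was near 0 in every library, at 0.170, 0.806 and 0.338 CPM without and 0.656, 0.412 and 0.208 CPM with halofuginone, with no change past the threshold. Of 25 inhibitory receptor genes and Tox, 14 rose and 5 fell: Ctla4 rose by 1.17 ± 0.11, Ikzf2, which encodes the factor Helios and counts on this list, by 1.83 ± 0.11, Nt5e, which encodes CD73, by 1.45 ± 0.069, and Cblb, a ubiquitin ligase that dampens T cell receptor signals, by 1.03 ± 0.071, while Lair1, a collagen receptor, fell by 1.65 ± 0.13.

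Receptors for cytokines and chemokines were higher for 24 of 38 genes and lower for 8. Ifngr1, the ligand-binding chain of the interferon gamma receptor, had 245, 249 and 259 CPM without and 877, 826 and 910.2 CPM with halofuginone. It rose by 1.80 ± 0.074, and Ifngr2, its partner, rose by 1.67 ± 0.075. The groups did not overlap. Il18r1 rose by 1.99 ± 0.12, Il12rb2 by 1.48 ± 0.10, and Kit, the stem cell factor receptor, had 4.81, 5.41 and 4.86 CPM without and 31.2, 33.4 and 32.2 CPM with halofuginone. It rose by 2.68 ± 0.13. The chains of the interleukin-2 receptor moved little, with Il2ra lower by 0.33 ± 0.062 and Il2rb at 671, 733 and 748 CPM without and 750.4, 696 and 734 CPM with halofuginone (change 0.019 ± 0.076, adjusted p = 0.86). Of 39 genes of T cell receptor signalling 14 rose and 12 fell, among them Dgka, a diacylglycerol kinase that limits signalling (a rise of 1.08 ± 0.063), and Ptpn6, the phosphatase SHP-1 (a fall of 1.21 ± 0.073).

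Interferon-inducible genes formed the list with the highest median: 39 of 51 rose and 5 fell (median 1.03), close to the 38 and 4 of Rosa26 cells. Zbp1, a sensor of left-handed nucleic acid, had 35.8, 36.7 and 39.2 CPM without and 139, 129.6 and 147 CPM with halofuginone. It rose by 1.90 ± 0.10. Igtp, an immunity-related GTPase, had 313, 369.9 and 366 CPM without and 847, 806 and 872 CPM with halofuginone. It rose by 1.27 ± 0.10. In both genes the groups were apart. Gbp3 rose by 1.17 ± 0.092 and Ifi206 by 1.54 ± 0.11. Members that did not pass included Ifit2, at 22.5, 27.5 and 27.6 CPM without and 24.0, 25.5 and 26.1 CPM with halofuginone. Mx1 did not pass either, at 3.57, 5.01 and 4.66 CPM without and 3.44, 3.77 and 3.33 CPM with halofuginone. Of 22 genes of MHC class I presentation 15 rose and 4 fell, with Tap1, the peptide transporter, higher by 0.79 ± 0.076 and H2-Q6 by 1.19 ± 0.07, though H2-Q genes share sequence and their split is uncertain. Of 26 genes of TGF-beta signalling 15 rose and 1 fell: Skil, a SMAD repressor, had 66.8, 68.3 and 78.2 CPM without and 259, 269 and 268 CPM with halofuginone. It rose by 1.90 ± 0.062. Smad7, the inhibitory SMAD, rose by 1.27 ± 0.077, and Itgae, the CD103 integrin chain, by 1.67 ± 0.072.

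Survival and death genes moved both ways. Of 25 BCL2 family members and partners 9 rose and 6 fell, with Bcl2l11, which encodes the killer BIM, at 56.2, 62.7 and 65.5 CPM without and 199, 186 and 201 CPM with halofuginone (a rise of 1.67 ± 0.059) and Mcl1, a survival factor, higher by 0.94 ± 0.076. Of 26 p53 targets 13 rose and 4 fell; Trp53 itself fell by 0.70 ± 0.055 and Trp53inp1 rose by 1.19 ± 0.051. Among 15 polyamine genes 10 fell and 2 rose, with Odc1, ornithine decarboxylase, lower by 1.08 ± 0.087 and Smox, spermine oxidase, higher by 1.05 ± 0.19. Of 50 autophagy and lysosome genes 15 rose and 7 fell, with Nbr1, a cargo receptor, higher by 0.77 ± 0.072 and Atp6v1a, a subunit of the proton pump, lower by 0.95 ± 0.087.

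The largest changes were mostly in genes of low level. Among the 12 highest, Slfn5, of the Schlafen family, had 0, 3 and 2 counts without and 95, 85 and 102 counts with halofuginone, and Ssc5d, a secreted scavenger receptor, had 6, 6 and 2 counts without and 115, 92 and 64 with it; with so few untreated counts, no fold change is given for these 2. Gnal, a G protein subunit, had 2.89, 1.73 and 1.76 CPM without and 23.6, 21.3 and 23.1 CPM with halofuginone. It rose by 3.40 ± 0.22. Tbx6, a T-box factor, had 0.906, 1.55 and 1.42 CPM without and 12.1, 12.6 and 10.97 CPM with halofuginone. It rose by 3.20 ± 0.19. Src, the tyrosine kinase, rose by 3.17 ± 0.26, and Gbp10, a guanylate-binding protein, by 3.17 ± 0.24, with the doubt over copies named above for Gbp11. At the other end, Cd93, a C-type lectin-like receptor, had 6.23, 8.52 and 8.30 CPM without and 1.09, 1.24 and 2.08 CPM with halofuginone. It fell by 2.39 ± 0.28. The 12 lowest included 4 histone genes (H2bc12, H2ac11, H3c3 and H4c2), and H3c3 had 20.4, 20.3 and 18.4 CPM without and 3.06, 4.25 and 3.33 CPM with halofuginone.

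**Figure D5:**
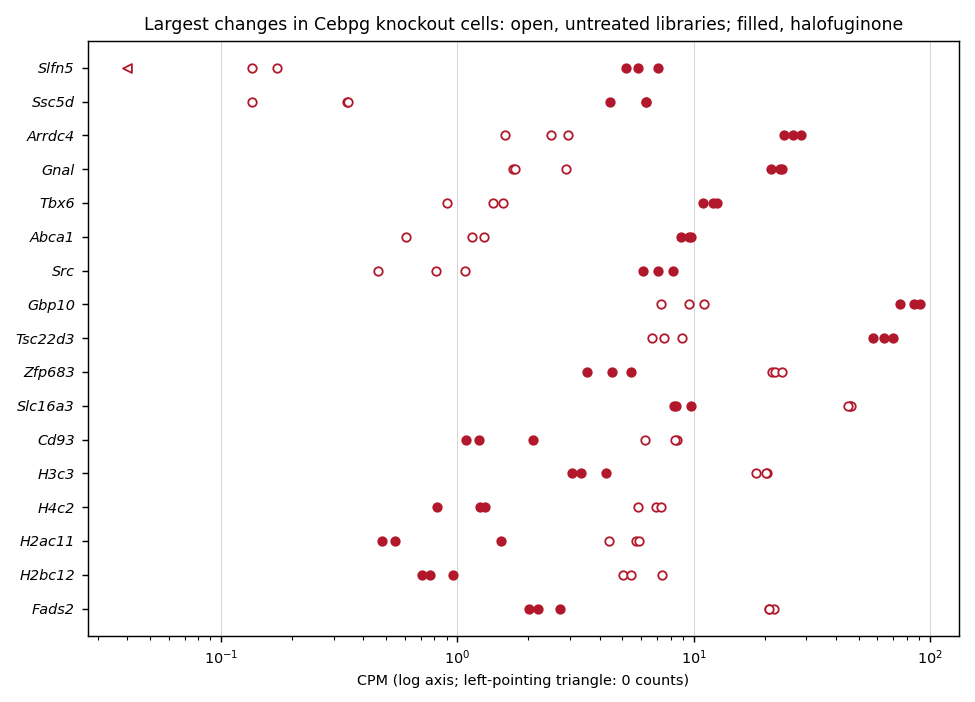
CPM (log axis) of 9 of the 12 genes that rose most and 8 of the 12 that fell most in Cebpg knockout cells under the rule for named genes, those named in the text; open points are the 3 untreated libraries, filled points the 3 treated ones, and a left-pointing triangle is a library with 0 counts. No gene has overlapping groups, which the rule required; 7 of the 9 risen genes shown lie under 3 CPM without the drug, on average.

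The 55 genes higher than in Rosa26 cells in the test of the difference included 34 that rose in both genotypes. Tbc1d4, a Rab GTPase activator of glucose transporter traffic, had 7.93, 8.58 and 7.36 CPM without and 25.1, 25.2 and 27.1 CPM with halofuginone. It rose by 1.69 ± 0.10 against 1.05 ± 0.10 in Rosa26 cells. Dap, a death-associated protein, was at 53.01, 53.2 and 54.4 CPM without and 54.2, 52.4 and 60.7 CPM with halofuginone (change 0.058 ± 0.087, adjusted p = 0.611, and 0.0455 with upper-quartile scaling) and fell by 0.54 ± 0.086 in Rosa26 cells. Hid1, a trafficking factor, rose by 0.50 ± 0.082, with a change of -0.12 ± 0.081 in Rosa26 cells (adjusted p = 0.236). The differences were 0.64 ± 0.13, 0.60 ± 0.12 and 0.62 ± 0.12 in the order named.

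Over all genes, 5814 moved in the same direction past the threshold in Cebpg knockout and Rosa26 cells, 77.5% of the calls in the former and 83.0% of those in the latter (7008 genes, 47.7%). Against Atf4 knockout cells, where 7294 genes (49.6%) changed, the drug effect differed past the threshold in 2 genes (0.0136%), Scd2 on the lower side (0.00681%) and the predicted gene Gm17767 on the higher side (0.00681%). Gm17767 is outside the rule and is named for its value. At an unadjusted p under 0.05 there were 990 such genes, and DESeq2 called 53. In Atf4 knockout cells Atf5 rose by 1.46 ± 0.14, Trib3 by 1.31 ± 0.11, Niban1 by 1.02 ± 0.083 and Slc6a9 by 2.26 ± 0.20, and Slc7a5 fell by 0.39 ± 0.072. By list, 15 of 29 stress effectors rose there and 1 fell, and 4 of 23 cytosolic synthetases rose and 13 fell. Of 22 amino acid transporters 6 rose and 12 fell, of 26 enzymes of amino acid metabolism 2 and 15, and of 19 folate genes 2 and 11. Over all genes 23.1% rose and 26.5% fell there. No member of these lists had a called difference between the 2 knockouts in the fit of all 18 libraries. The differences of Cebpg knockout from Atf4 knockout cells were -0.32 ± 0.21 for Atf5 (adjusted p = 0.85), -0.71 ± 0.16 for Trib3 (adjusted p = 0.262) and -0.31 ± 0.087 for Cebpg (adjusted p = 0.369), none past the threshold, which does not show that the 2 knockouts respond alike. Trib3 did pass in 4 alternatives (adjusted p 0.0004 to 0.0405), DESeq2, upper-quartile scaling, leaving out the 3 low-Malat1 libraries and leaving out treated Atf4 knockout replicate 2, and Cebpg passed with DESeq2 (adjusted p = 0.0495).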

How the data were processed

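Poly-A RNA was captured and made into directional (dUTP) libraries, per the labels' protocols. Reads were handled with FastQC, MultiQC, Trimmomatic, STAR, HTSeq and edgeR against the mouse build GRCm39, per the submitters' processing notes; their versions, settings and annotation, with the strand setting, have no entry there. The authors deposited raw counts per gene, per the file headers. Of the gene names 449 were blank and 431 of these were filled by identifier from a gene name table.

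All 18 libraries entered 1 fit with a term per group (edgeR 4.0.16, R 4.3.3, TMM factors, robust quasi-likelihood F tests); filterByExpr at a minimum count of 10 kept all 14695 genes. The halofuginone effect in Cebpg knockout cells, its difference from Rosa26 and its difference from Atf4 knockout cells were tested, with Benjamini-Hochberg adjustment over all genes and a threshold of 0.05. Library pairs of 1 group differed by more than sampling noise, so none was counted as a duplicate.

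The members, gene lists (47, with 1439 measured genes, and 6 of markers) and tests were chosen with earlier results of these data known, and list counts are descriptions. Genes were named by rule: a panel; the 12 highest and 12 lowest effects of at least 5 CPM without overlap of libraries and with no predicted name; the 10 highest and 10 lowest differences from Rosa26 and 6 and 6 from Atf4 knockout cells; and of each list the 6 members with the smallest p, the 3 with the smallest p of the difference and the 3 of highest level not past the threshold. Some genes under the rule are not reported here. Without the strand setting, overlapping antisense genes cannot be told apart, and near-identical copies are uncertain. Promoters came from a RefSeq table of another build (GRCm38.p6) and were matched by symbol, so their coordinates are not those of the counts. Alternatives were RLE and upper-quartile scaling, DESeq2 1.42.0, no filter, a minimum count of 50, only the groups compared, a replicate block, each library left out, and 3 low-Malat1 libraries left out.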

Additional observations from a re-analysis of the deposited data

Results flagged for a closer look

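The drug effect differed between the genotypes, by a test of the difference itself, for the genes given here with the log2 difference of the Cebpg knockout from Rosa26 cells. Among stress effectors and their regulators the differences were -2.13 for Atf5, -2.04 for Trib3, -1.57 for Niban1, -1.49 for Cyb5r1, -0.86 for Cebpg, -0.80 for Nfil3, -0.76 for Nfe2l1, -0.67 for Sesn2 and -0.66 for Eif4ebp1, and 0.39 for Sesn3. Among amino acid carriers and enzymes they were -1.87 for Slc6a9, -1.49 for Slc1a4, -1.01 for Slc7a5, -0.75 for Slc3a2, -1.31 for Gpt2, -0.80 for Asns, -0.81 for Psat1, -0.51 for Aldh18a1, -0.49 for Got1, -0.75 for Gcsh, -0.74 for Mthfd2, -0.58 for Mthfd1l and -1.30 for Pck2. For tRNA synthetases and translation they were -0.75 for Eprs1, -0.70 for Sars1, -0.66 for Iars, -0.56 for Mars1, -0.67 for Aars1 and -0.56 for Eif3c.

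For redox and mitochondrial genes the differences were -1.52 for Chchd10, -1.31 for Nqo1, -0.81 for Lonp1, -0.81 for Hspa9, -0.59 for Gclc and -0.52 for Txnrd1. For division they were -0.67 for Pola1, -0.65 for Cdc6, -0.52 for Mcm10, -0.50 for Uhrf1, -0.44 for Dnmt1, -0.61 for E2f8, -0.57 for Ccne1, -0.53 for Mybl2, -0.57 for Tk1, -0.51 for Rrm1 and -0.50 for Ncaph. Others lower were Angptl6 at -2.08, Zbtb7b at -1.71, Gbp11 at -1.68, Gab2 at -1.65, Vegfa at -1.05 and Tnf at -0.66. Higher were Scd2 at 0.81, Mylip at 0.78, Klf10 at 0.69, Tbc1d4 at 0.64, Hid1 at 0.62, Dap at 0.60, Abcg1 at 0.53 and Tcf7 at 0.47. Against the Atf4 knockout, Scd2 differed by -0.65. Groups of 3 libraries are too small for a test of outlying samples.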

How the results depend on the processing

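The 7501 genes called for the drug effect stayed within 1.5 times under all alternatives. The difference from Rosa26 cells, 363 genes with 55 higher and 308 lower, did not. DESeq2 called 648 (295 higher), RLE scaling gave 154 higher, upper-quartile scaling 150, a minimum count of 50 gave 222, fitting only the groups compared gave 221, and leaving out the 3 low-Malat1 libraries gave 1053 (259 higher and 794 lower). With 1 library left out it ranged from 210 to 434 genes, from 26 to 205 higher and from 150 to 304 lower. The difference from Atf4 knockout cells, 2 genes, was 53 with DESeq2 (18 higher, 35 lower), 8 at a minimum count of 50 (7 higher), 11 with upper-quartile scaling (9 higher, 2 lower) and 61 without the low-Malat1 libraries (29 higher, 32 lower), and with 1 library left out 1 to 4 genes, 1 to 2 higher and 0 to 2 lower. The stricter promoter core gave 4.82%. The cause of these moves was not tested. List counts without treated replicate 2 or the low-Malat1 libraries were added after the data were seen.

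The libraries were fitted as unpaired, since not every pair of same-numbered libraries correlated above 0.1 in its deviations from group means. The values were -0.07, 0.02 and 0.05 in Cebpg knockout, 0.01, 0.22 and 0.18 in Rosa26 and -0.13, -0.02 and -0.26 in Atf4 knockout cells. With 3 libraries a group, such values cannot tell whether the replicates were paired. With the replicate as a block, 7264 genes were called for the drug effect (3271 higher, 3993 lower), 273 for the difference from Rosa26 cells (41 higher, 232 lower) and 2 for that from Atf4 knockout cells.

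Over the alternatives, 2067 of 2114 values of the 151 named drug effects, 1409 of 1460 of the 73 named differences from Rosa26 cells and 69 of 80 of the 4 from Atf4 knockout cells kept direction and side of the threshold, and none that passed reversed. Depth limits genes of a few counts, such as Slfn5, whose 3 untreated libraries held 5 counts in all.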
